A study of Mus musculus with 36 samples.

Results

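H19 and a set of 9 other imprinted growth genes, Igf2, Dlk1, Meg3, Rian, Peg3, Plagl1, Cdkn1c, Mest and Grb10, were followed across 36 tibia libraries from mice. Each member is the gene of that symbol in a table of 56246 genes, so the set holds 10 of 56246 genes. The set was chosen from these data, because H19 had been seen to be higher in both groups of LMNA G/G mice than in wild-type mice. Differences from wild-type are therefore given below as a description, with no test.

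Imprinted genes are read from 1 parental copy. The maternal copy of H19 gives a long noncoding RNA that is abundant in the fetus and in developing muscle, and the paternal copy of its neighbour Igf2 gives insulin-like growth factor 2, which drives fetal growth. Most genes of this kind fall silent in the tissues of the young animal, while muscle keeps some H19. Igf2 and H19 share enhancers and a control region between them, and Dlk1, Meg3 and Rian lie together in another imprinted domain.

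The mice were 6 months old and of a C57BL/6J background, with 6 males and 6 females in each group of 12. Wild-type (WT) mice were not treated. LMNA G608G/G608G mice (LMNA G/G) carry a human LMNA transgene with the mutation of Hutchinson-Gilford progeria on both copies, and keep their own mouse Lmna. They were injected behind the eye at P14, that is 14 days after birth, with saline or with an adenine base editor (ABE) carried by a pair of AAV9 vectors, which corrects the mutant base, and are called saline and ABE mice here. Neither LMNA G/G group is an untreated one, and WT mice received no injection. The paper describes the mice of these groups as littermates, while the labels name no litter or batch. The mouse numbers of WT mice form a series of their own. The names of saline replicate 9 and of ABE replicates 2 and 11 also hold the letters WT. These libraries were grouped by their treatment labels, and what the letters stand for there was not determined. A difference of batch or litter between WT and LMNA G/G mice, if there was one, cannot be told apart from genotype. Tibiae were stripped of their ends and of marrow before RNA was taken, which leaves mostly cortical bone.

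The authors deposited TPM, reads corrected for gene length and for library total. Libraries were brought to a common scale by the median, over genes, of a library's TPM against the geometric mean of all libraries, and these values are called scaled TPM. Reads on each gene could be recovered from TPM, and libraries held from 48064068 to 116206662 reads on genes. The library of ABE replicate 1, a female, stood apart with a median ratio of 0.219 against a median of 1.06 over all libraries. The difference of H19 between ABE and saline mice and the sex test of Grb10 are also given without it. The fits with muscle content, a measure described below, were not repeated without it. A list of 20 skeletal muscle genes, which covers contractile proteins and creatine kinase, was detected in full in every group. Its summed level ranged from 274 to 4031 scaled TPM in WT, from 451 to 10397 in saline and from 1468 to 17310 in ABE mice. The list of osteocyte markers summed to between 9.91 and 48.0 in WT, 169 and 488 in saline and 172 and 344 in ABE mice, and that of osteoblasts to between 439.7 and 2602 over all libraries, so that bone was sampled in every group. In bulk RNA, more cells of a type and more RNA per cell cannot be told apart.

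H19 spans positions 142575529 to 142578143 on the minus strand of chromosome 7 (GRCm38), and Igf2 lies beside it at 142650766 to 142666816 on the same strand. H19 holds miR-675, whose mature forms are shown because they are the part of the H19 transcript that pairs with targets through a seed. In the sequences from RefSeq (GRCm38.p6, minus strand of chromosome 7) the seed, bases 2 to 8, is in capitals. The -5p form lies at 142577112 to 142577133 and the -3p form at 142577078 to 142577099.
mmu-miR-675-5p: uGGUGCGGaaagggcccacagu
mmu-miR-675-3p: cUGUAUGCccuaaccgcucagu
The seeds of the 2 forms differ, so they do not form a seed family. Mir675 was listed at 0 reads in all 36 libraries, which allows up to 3 reads a library. These libraries hold poly(A) RNA, and the Mir675 gene is 84 bp long, so the level of miR-675 was not measured here.

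H19 was the most abundant of the 10 genes per length. It ranged from 0.393 to 10.7 scaled TPM in WT mice (median 3.26), from 5.94 to 30.1 in saline mice (median 14.2) and from 8.12 to 133 in ABE mice (median 23.9). All 12 saline and all 12 ABE mice were above the WT median, and 8 and 11 of them were above the highest WT library, a female. The ABE replicate 1 held the highest H19 level, and the next library of its group was at 52.1. The fitted log2 fold change of H19 against WT was 2.11 (SE 0.35) in saline and 3.0 (SE 0.35) in ABE mice, on a scale of log2 (scaled TPM + 0.5). Markers of other cells differed between the same groups. Of cartilage markers 5 of 5 were lower than in WT in both. Their sum lay between 71.4 and 215 scaled TPM in WT, 6.51 and 33.9 in saline and 14.9 and 68.3 in ABE mice. Of osteocyte markers 4 of 4 tested were higher in both, with median log2 fold changes of 3.38 in saline and 3.17 in ABE mice. Of all genes 24.6% were lower and 27.7% higher in saline mice, and 35.2% and 35.0% in ABE mice. The part of these cells in the differences from WT was not tested.

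Igf2 was low, at 26 to 574 reads a library, and its levels in WT and saline mice did not overlap. The share of all genes that separate in this way was not counted, so nothing particular to Igf2 is read from it. It ranged from 0.0146 to 0.0551 scaled TPM in WT (median 0.0384), from 0.0652 to 0.175 in saline (median 0.112) and from 0.0319 to 0.562 in ABE mice (median 0.15). Among ABE mice 11 of 12 lay above every WT mouse, and the exception was replicate 2, a female. Igf2 did not reach the mean of 0.5 scaled TPM required for the fit on TPM, and nor did Dlk1, Meg3, Rian and Mest. These 5 genes were fitted on recovered reads with limma-voom over 22955 genes with a mean of at least 10 reads (the read fit), while H19, Peg3, Plagl1, Cdkn1c and Grb10 were fitted on scaled TPM over 15902 genes (the TPM fit). Against WT, Igf2 was at a log2 fold change of 1.75 (SE 0.32) in saline and 2.02 (SE 0.32) in ABE mice in the read fit.

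The ratio of H19 to Igf2 per length ranged from 9.25 to 250.1 in WT (median 80.0), from 34.2 to 310.1 in saline (median 118) and from 86.6 to 319.0 in ABE mice (median 168). H19 was thus the more abundant of the pair in every library. The mean log2 ratio was 0.61 (SE 0.30) higher in ABE than in saline mice, which missed the threshold in a two-sided permutation test over 24 libraries (p = 0.0525).

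**Figure D1:**
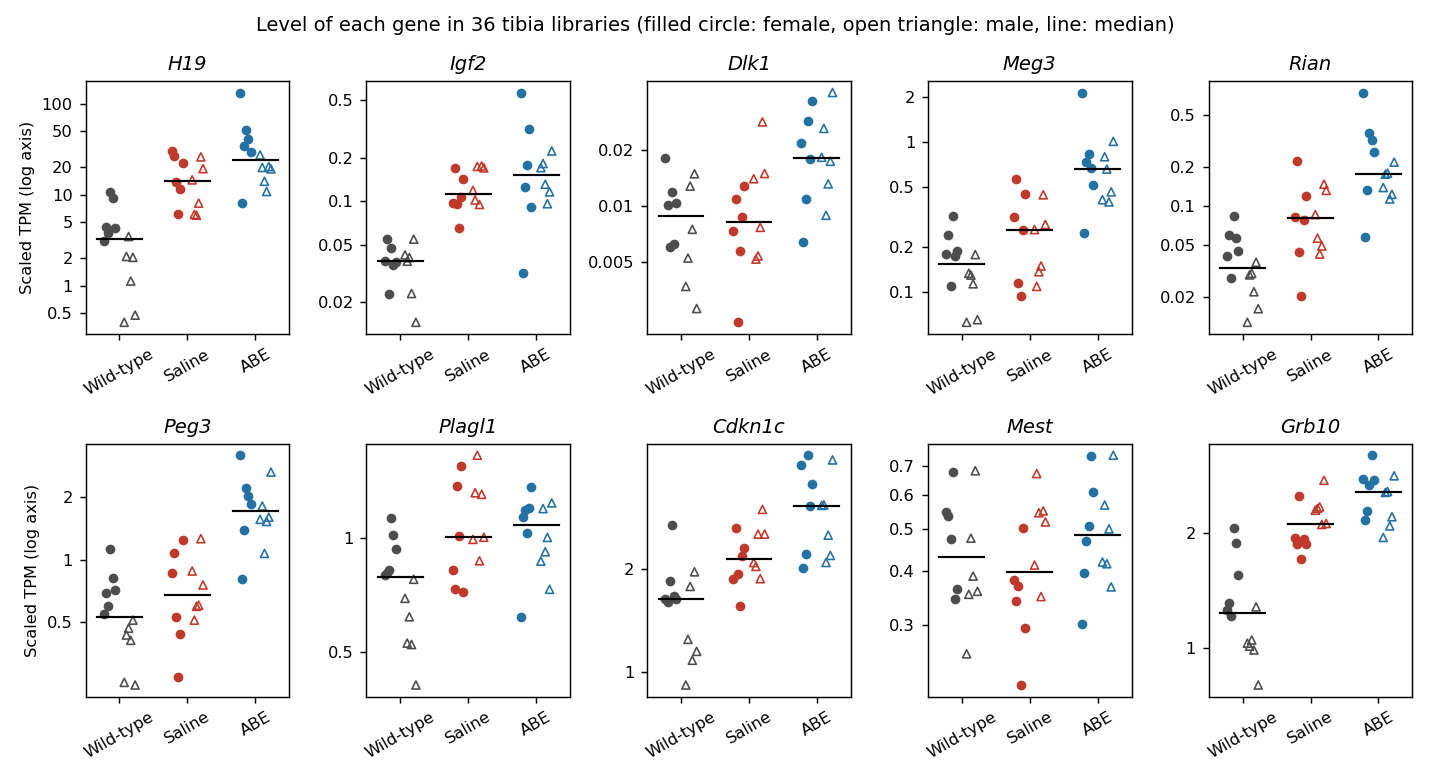
Level of each of the 10 genes in scaled TPM (log axis) in the 36 libraries, by group; filled circles are females, open triangles males, and lines are group medians. H19 medians are 3.26, 14.2 and 23.9 in WT, saline and ABE mice, and the saline mice lie above all WT mice for Igf2. The share of all genes that separate in this way was not counted.

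Dlk1, Meg3 and Rian belong to the imprinted domain of chromosome 12. Dlk1 (109452823 to 109463336, plus strand) gives a membrane protein of the Notch ligand family that holds back differentiation of fat and muscle precursors and is read from the paternal copy. Meg3 (109541001 to 109571726) and Rian (109603940 to 109661716) are maternal noncoding RNAs, and Rian hosts small nucleolar RNAs.

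Meg3 had medians of 0.153, 0.259 and 0.663 scaled TPM in WT, saline and ABE mice. It ranged from 0.0623 to 0.320 in WT, from 0.0933 to 0.570 in saline and from 0.246 to 2.15 in ABE mice. Of ABE mice 11 lay above the highest WT and 7 above the highest saline mouse. Rian had the same order of medians, 0.0336, 0.0802 and 0.177 scaled TPM, and ranged from 0.0127 to 0.0837 in WT, from 0.0203 to 0.222 in saline and from 0.0573 to 0.744 in ABE mice. Against WT, Meg3 was at a log2 fold change of 0.64 (SE 0.33) in saline and 2.17 (SE 0.32) in ABE mice, and Rian at 1.09 (SE 0.39) and 2.46 (SE 0.38) in the read fit. Dlk1 rested on 4 to 58 reads a library. Its medians were 0.00883, 0.00823 and 0.0180 scaled TPM, its groups overlapped, and its log2 fold change against WT was 0.13 (SE 0.35) in saline and 1.15 (SE 0.33) in ABE mice.

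The paternal gene Peg3 (chromosome 7, 6703892 to 6730431, minus strand) encodes a zinc finger protein of muscle stem cells and brain. It ranged from 0.250 to 1.12 scaled TPM in WT (median 0.531), from 0.274 to 1.26 in saline (median 0.680) and from 0.811 to 3.17 in ABE mice (median 1.70). WT and saline levels overlapped widely, while 10 of 12 ABE mice lay above every saline mouse. Against WT the log2 fold change was 0.22 (SE 0.15) in saline and 1.09 (SE 0.15) in ABE mice in the TPM fit.

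Cdkn1c, Grb10 and Plagl1 act as brakes on growth. Cdkn1c (chromosome 7, 143458339 to 143461050) encodes the cell cycle inhibitor p57 and had medians of 1.64, 2.14 and 3.08 scaled TPM in WT, saline and ABE mice. Grb10 (chromosome 11, 11930508 to 12038683), an adaptor that dampens insulin and IGF receptor signalling, had medians of 1.24, 2.11 and 2.55 scaled TPM. All 24 LMNA G/G mice were above the WT median of Grb10, and 7 saline and 11 ABE mice were above the highest WT mouse. Plagl1 (chromosome 10, 13060504 to 13131694), a zinc finger transcription factor, had medians of 0.789, 1.01 and 1.08. Log2 fold changes against WT in saline and ABE mice were 0.39 and 0.74 for Cdkn1c (SE 0.12), 0.58 and 0.76 for Grb10 (SE 0.08) and 0.36 and 0.30 for Plagl1 (SE 0.10).

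Mest (chromosome 6, 30723547 to 30748465), a paternal gene for an enzyme of the hydrolase fold named for its expression in mesoderm, overlapped between all groups. Its medians were 0.432, 0.397 and 0.485 scaled TPM, with log2 fold changes against WT of -0.08 (SE 0.17) in saline and 0.15 (SE 0.17) in ABE mice in the read fit. Its 3′ end overlaps Copg2 on the other strand, which had 1361 to 5479 reads a library, and the libraries were stranded.

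Against WT, 4 of 5 members of the TPM fit were called higher in saline mice at an adjusted p of 0.05, where 27.7% of all genes were higher, and 2 of 5 members of the read fit, where 28.0% were. In ABE mice these counts were 5 of 5 (35.0% of all genes) and 4 of 5 (36.4%). Since the members were chosen on this comparison, nothing is read from these counts.

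ABE mice were compared with saline mice to see whether treatment moved these genes. H19, Peg3 and Cdkn1c rose in the TPM fit and Dlk1, Meg3 and Rian in the read fit, each by 1.28-fold to 2.89-fold, and no member fell. Of all genes 23.2% were called higher in the TPM fit (25.1% lower) and 24.2% higher in the read fit. Meg3 rose by 1.53 on the log2 scale (SE 0.30, adjusted p = 0.000459), Rian by 1.38 (SE 0.34, adjusted p = 0.00208) and Dlk1 by 1.02 (SE 0.32, adjusted p = 0.0107). Peg3 rose by 0.87 in the TPM fit (SE 0.15, adjusted p = 0.000206), by 1.31 in the read fit, which adds no 0.5 to its level, and was above the saline median in all 12 ABE mice. Cdkn1c rose by 0.36 (SE 0.12, adjusted p = 0.0154), and 10 of 12 ABE mice were above the saline median.

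H19 was 0.89 higher on the log2 scale (SE 0.35, adjusted p = 0.0360), and 9 of 12 ABE mice were above the saline median. This call was lost in the read fit (0.91, adjusted p = 0.0525) and without ABE replicate 1 (0.72, adjusted p = 0.0832). It was lost too on leaving out any one of 6 saline or 3 other ABE libraries, which are named with the alternatives. Igf2 was at 0.27 (SE 0.27, adjusted p = 0.422), Mest at 0.23 (SE 0.17, adjusted p = 0.258), Grb10 at 0.18 (SE 0.08, adjusted p = 0.0782) and Plagl1 at -0.06 (SE 0.10, adjusted p = 0.671). The 95% intervals of these differences reached from -0.28 to 0.82 for Igf2, from -0.11 to 0.58 for Mest, and from -0.26 to 0.15 for Plagl1.

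Muscle RNA varied between libraries and between groups, and H19 is a gene of muscle. Acta1, skeletal actin, ranged from 52.9 to 870 scaled TPM in WT (median 285), from 88.5 to 2072 in saline (median 651) and from 284 to 3758 in ABE mice (median 1736), and Ckm, muscle creatine kinase, had medians of 79.4, 146 and 533. ABE mice thus held the most muscle RNA. The mean log2 level of Acta1 and Ckm was used as a measure of muscle content in each library, and within each group of 12 libraries it was set against each member.

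Within groups, 23 of 30 correlations between a member and muscle content passed an adjusted permutation p of 0.05, 9 of 10 in WT, 7 of 10 in saline and 7 of 10 in ABE mice, and all 23 were positive. For H19, Pearson's r was 0.898 in WT (Spearman's rho 0.678, adjusted permutation p = 0.0015 and 0.0411), 0.692 in saline (rho 0.727, adjusted permutation p = 0.0150 and 0.0285) and 0.739 in ABE mice (rho 0.769, adjusted permutation p = 0.0140 and 0.0198). Without the 2 libraries farthest from the median muscle content, r for H19 was 0.675, 0.564 and 0.930. The ABE libraries left out here were replicates 2 and 3, so that ABE replicate 1 stayed in. Rian had r of 0.888, 0.887 and 0.823 (rho 0.790, 0.902 and 0.783) with an adjusted permutation p of at most 0.00381 for r, and 0.759, 0.790 and 0.745 without the farthest libraries. Peg3 gave r of 0.889, 0.829 and 0.856 (rho 0.678, 0.818 and 0.783), and 0.709, 0.590 and 0.763 without the farthest libraries. Over all 30, only 2 correlations passed in the 10 libraries a group that remained without the farthest ones. Most of these calls, those of Rian and Peg3 included, were thus lost. The adjusted permutation p was then 0.0591 in each group for Rian and 0.0652, 0.133 and 0.0591 for Peg3. Fewer libraries and a narrower range of muscle content remained, so how far the correlations rested on those left out cannot be told. With the wider muscle list 23 passed, and 22 with values centred on sex.

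Members differed in how they went with muscle. Meg3 had r of 0.901 in WT, 0.774 in saline and 0.647 in ABE mice, Dlk1 0.698, 0.785 and 0.759, and Cdkn1c 0.807, 0.761 and 0.750. Igf2 passed in the LMNA G/G groups (r 0.747 and 0.833) and had r of 0.511 in WT (adjusted permutation p = 0.106). Grb10 passed in WT alone (r 0.742) and had r of 0.386 and 0.443 in saline and ABE mice, and Mest had r of 0.670 in WT, 0.503 in saline and 0.0877 in ABE mice. Plagl1, which passed in WT (r 0.637), had r of -0.204 and -0.373 in LMNA G/G mice. Whether r differed between groups was not tested.

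**Figure D2:**
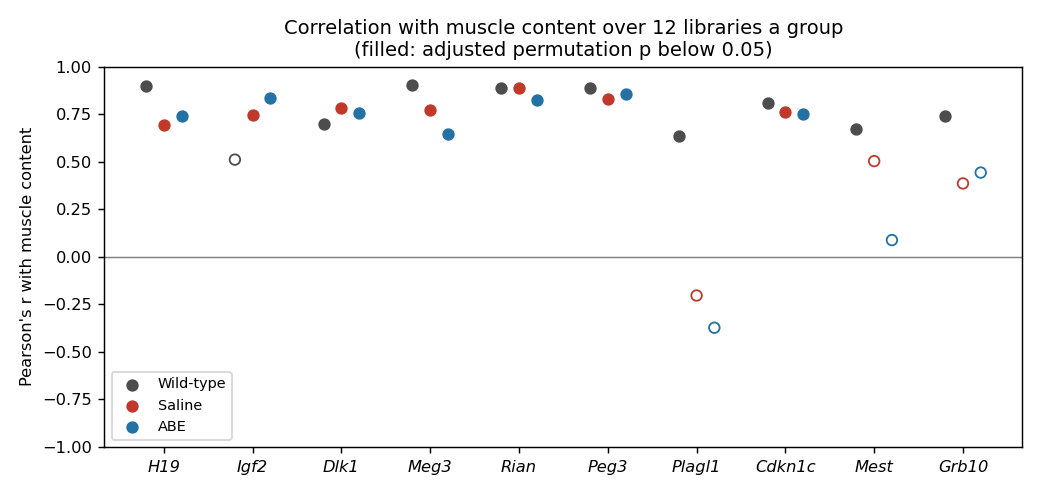
Pearson's r of each member with muscle content (mean log2 scaled TPM of Acta1 and Ckm) over 12 libraries of each group; filled points passed an adjusted permutation p of 0.05. All 23 filled points are above 0, and the points of Plagl1 in saline (-0.204) and ABE mice (-0.373) lie below it.

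Adding muscle content to the fit separated the members. Against WT, H19 was then at a log2 fold change of 1.27 (SE 0.17) in saline and 1.27 (SE 0.21) in ABE mice, and Igf2 at 1.23 (SE 0.26) and 1.0 (SE 0.32). Grb10 kept 0.46 (SE 0.08) and 0.50 (SE 0.10), while Dlk1 was at -0.53 (SE 0.26) and -0.24 (SE 0.31). For Peg3 the values were -0.11 (SE 0.09) in saline and 0.42 (SE 0.11) in ABE mice. The fit takes 1 slope on muscle for all groups, and the slope of H19 within groups was 1.2 (SE 0.19) in WT, 0.48 (SE 0.16) in saline and 0.80 (SE 0.23) in ABE mice.

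Single libraries of like muscle content were also compared, which needs no slope. Each WT library was set beside the saline library of the same sex nearest to it in muscle content, and 9 of 12 pairs lay within 0.5 on the log2 scale. In 9 of these 9 pairs, which use 4 saline libraries, H19 was higher in the saline library, by a median of 1.54 on the log2 scale (range 0.34 to 1.90). Igf2 was higher in 9 of 9, by a median of 1.54 (range 0.79 to 2.16), while Dlk1 was higher in 2 of 9 and Peg3 in 3 of 9. Of WT and ABE libraries paired in the same way 5 pairs lay within 0.5, with 2 ABE libraries among them. H19 was higher in the ABE library in 5 of 5, by a median of 1.11 (range 0.88 to 1.69). Igf2 was higher in 2 of 5, with a median of -0.25 (range -0.78 to 1.39). Most of these pairs use ABE replicate 2, the ABE mouse whose Igf2 did not lie above every WT mouse, and all are of females. They therefore cannot show whether the difference that Igf2 has in the fit holds at like muscle content. These pairs repeat libraries and are given as a description.

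**Figure D3:**
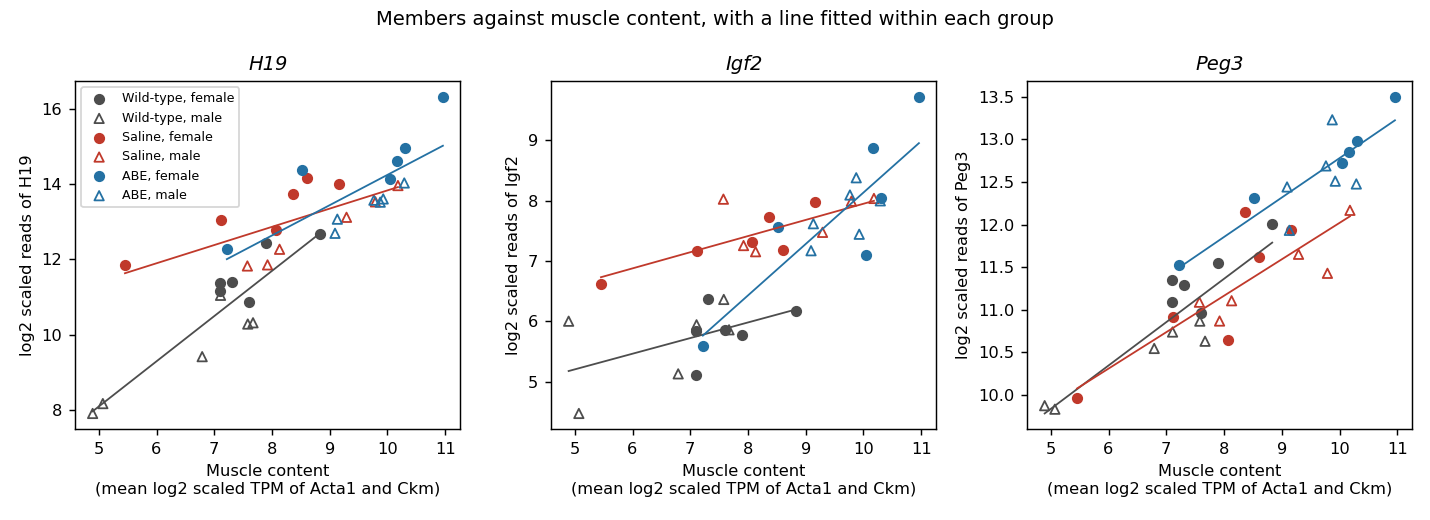
Log2 scaled reads of H19, Igf2 and Peg3 (vertical axes) against muscle content (mean log2 scaled TPM of Acta1 and Ckm, horizontal axes) in the 36 libraries, with a line fitted within each group of 12. The H19 slopes are 1.2, 0.48 and 0.80 in WT, saline and ABE mice. In all 9 same-sex nearest pairs within 0.5 in muscle content, the saline library is above the WT one for H19 and Igf2. Across the sexes this does not hold for H19. WT replicate 9, a female at muscle content 7.89, is at 12.4, and saline replicate 8, a male at 7.92, is at 11.9.

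Between ABE and saline mice, the difference in H19 was lost with muscle content in the fit, at -0.01 (SE 0.17, adjusted p = 0.986). The 95% interval of that difference ran from -0.36 to 0.35 on the log2 scale. Peg3 kept 0.52 (SE 0.09, adjusted p = 0.000560), 1 of 5 members of the TPM fit called higher, where 7.36% of all genes were. Meg3 kept 0.77 (SE 0.21, adjusted p = 0.0154), 1 of 5 members of the read fit, where 7.47% of all genes were higher. Rian was at 0.39 (SE 0.16, adjusted p = 0.0976), Dlk1 at 0.29 (SE 0.25, adjusted p = 0.450) and Cdkn1c at 0.10 (SE 0.09, adjusted p = 0.455). Igf2 was at -0.22 (SE 0.23, adjusted p = 0.537), with its sign turned from that without muscle content. Of saline and ABE libraries paired in the same way 7 pairs lay within 0.5, with 5 ABE libraries among them. Peg3 was higher in the ABE library in 7 of 7. Meg3, Rian and Cdkn1c were higher in 6 of 7, H19, Grb10 and Mest in 5, Igf2 and Dlk1 in 4 and Plagl1 in 3. These counts do not set Meg3 apart from Rian and Cdkn1c, which lost their calls.

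Markers of other cells also moved between ABE and saline mice. Higher in ABE mice were 5 of 7 of tendon and fibroblasts (median log2 fold change 0.65), 3 of 5 of smooth muscle and pericytes and 3 of 5 of cartilage, and 4 of 4 tested adipocyte markers were lower. The tendon and fibroblast sum ranged from 15.7 to 63.1 scaled TPM in saline and from 36.4 to 111 in ABE mice. With muscle content in the fit, 1 of the 7, the collagen gene Col3a1 (named after its values were seen), kept its call at 0.72 (SE 0.24, adjusted p = 0.0466), 2 adipocyte markers stayed lower, and 0 of 5 passed for smooth muscle and for cartilage in limma (1 and 3 at an unadjusted p of 0.05). Their part in the levels of Peg3 and Meg3 was not tested.

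**Figure D4:**
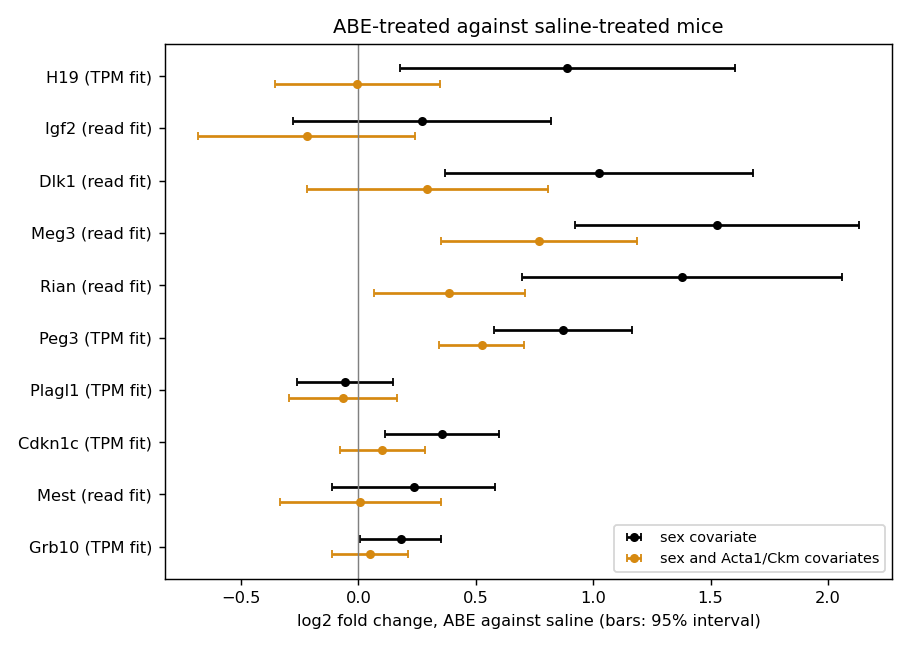
Log2 fold change of each member between ABE and saline mice, with bars for the 95% interval, from the fit with sex (black) and the fit with sex and muscle content (orange). H19 goes from 0.89 to -0.01, while Peg3 at 0.52 and Meg3 at 0.77 stay above 0 with muscle content in the fit.

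Promoters are shown for Peg3 and Meg3, the members called higher in ABE than in saline mice with muscle content in the fit. They come from RefSeq (GRCm38.p6), which gave an entry for 8 of the 10 members, 15 promoters in all, each 300 bases from 250 before the start site to 50 after it. For Peg3 the 250 bases before the start site are given (chr7:6730420-6730669, minus strand), with the match to GGGGCCCC in capitals. For Meg3, a noncoding RNA, the whole window is given (chr12:109540746-109541045, plus strand), with matches to TATAAA on either strand in capitals, which overlap each other.
Peg3: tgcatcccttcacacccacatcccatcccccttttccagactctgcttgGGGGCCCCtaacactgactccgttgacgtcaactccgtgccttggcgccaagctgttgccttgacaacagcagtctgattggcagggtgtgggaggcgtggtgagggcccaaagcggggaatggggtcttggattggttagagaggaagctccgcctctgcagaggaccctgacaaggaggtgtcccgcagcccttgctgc
Meg3: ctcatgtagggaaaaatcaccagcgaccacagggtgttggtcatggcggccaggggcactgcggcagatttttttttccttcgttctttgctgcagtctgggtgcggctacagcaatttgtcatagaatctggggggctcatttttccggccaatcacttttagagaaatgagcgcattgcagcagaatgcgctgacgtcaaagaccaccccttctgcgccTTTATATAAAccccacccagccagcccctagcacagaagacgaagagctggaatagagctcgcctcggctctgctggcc
GGGGCCCC, the letters at the core of sites bound by PLAGL1, was in the promoters of Peg3 alone among the 8 members and in 1.08% of all 32851 promoters. TATAAA was in a promoter of Meg3 alone and in 13.6% of all promoters, and starts 29 and 25 bases before the start site. CANNTG, the E-box read by muscle factors such as MYOD1, was in promoters of 6 of the 8 members (Igf2, Meg3, Rian, Plagl1, Mest and Grb10) and in 72.3% of all promoters. These matches on both strands are a description of the letters, and binding was not measured.

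H19 was compared between the sexes in each group. In WT mice it ranged from 3.06 to 10.7 scaled TPM in females and from 0.393 to 3.46 in males, in saline mice from 6.08 to 30.1 and from 5.94 to 26.1, and in ABE mice from 8.12 to 133 and from 10.8 to 27.4. The sexes overlapped in every group. With group and sex alone in the TPM fit, none of the 5 members was called higher in females in any group (0.208% of all genes were in WT, 0.308% in saline and 2.95% in ABE mice). At an unadjusted p of 0.05, limma gave 5 members in WT, 0 in saline and 1 in ABE mice. In WT, 2329 of all 15902 genes were under that p, in either direction. The read fit called 2 of 10 members higher in WT females, H19 and Grb10, where 230 of 22955 genes were higher.

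With muscle content in the TPM fit, H19 was called higher in females in both LMNA G/G groups and missed the threshold in WT. The difference on the log2 scale was 1.21 (SE 0.23, adjusted p = 0.00735) in saline and 1.12 (SE 0.22, adjusted p = 0.00297) in ABE mice, and 0.88 (SE 0.23, adjusted p = 0.134) in WT. Of all genes 0.126% were higher in WT females, 0.39% in saline and 6.51% in ABE females in this fit. The read fit with muscle content called H19 higher in females in every group, WT included. In that fit 145 of 22955 genes were higher in WT females. Rian was higher in females in the read fit with muscle content, by 0.76 (SE 0.21, adjusted p = 0.0495) in saline mice (1.13% of all genes) and by 0.79 (SE 0.19, adjusted p = 0.00954) in ABE mice (5.42%). No difference of H19 between the sexes varied with treatment or genotype at the threshold in the TPM fit with muscle content. The values were 0.34 (SE 0.34, adjusted p = 0.731) for saline against WT and -0.10 (SE 0.32, adjusted p = 0.904) for ABE against saline mice. Without muscle content, the rise of H19 from WT to saline mice was 2.71 in males alone and 1.52 in females alone. The TPM fit did not call that difference between the sexes either.

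Grb10 was the 1 member whose change from WT to saline mice passed a test of its difference between the sexes. In WT it ranged from 1.22 to 2.06 scaled TPM in females and from 0.803 to 1.28 in males, and in saline mice from 1.71 to 2.49 in females and from 2.10 to 2.74 in males. The rise over WT was smaller in females by 0.60 on the log2 scale (difference -0.60, SE 0.14, adjusted p = 0.0407), where 1.03% of all genes differed. With muscle content in the fit it was -0.46 (SE 0.14, adjusted p = 0.152).

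**Figure D5:**
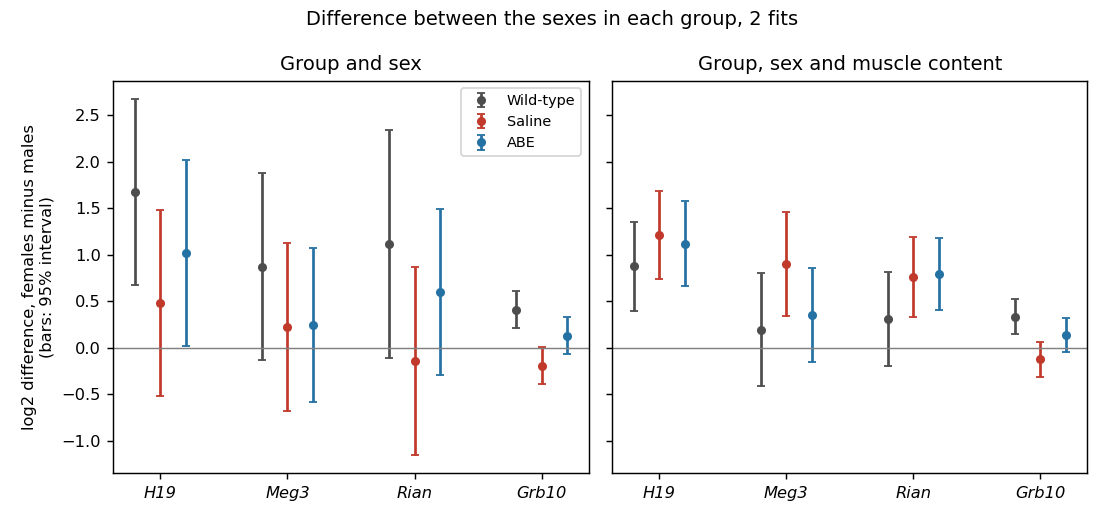
Difference between females and males (log2, bars are 95% intervals) for H19, Meg3, Rian and Grb10 in each group, from fits with group and sex (left) and with muscle content added (right); Meg3 and Rian are from the read fit. H19 is at 0.88, 1.21 and 1.12 on the right, and Grb10 is at 0.41 in WT and -0.19 in saline mice on the left.

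Members were also compared with each other within groups. Of 36 correlations, 21 passed an adjusted permutation p of 0.05 and all 21 were positive. Meg3 and Rian had r of 0.973 in WT, 0.928 in saline and 0.864 in ABE mice (rho 0.944, 0.902 and 0.769, adjusted permutation p = 0.00012, 0.00012 and 0.00238 for r). Without the 2 farthest libraries r was 0.948, 0.948 and 0.546. H19 and Peg3, which lie far apart on chromosome 7, gave r of 0.968, 0.797 and 0.764 (rho 0.951, 0.762 and 0.650). After the regression of each gene on muscle content within the group, 5 of 36 passed. These were Meg3 with Rian in each group (r 0.865, 0.825 and 0.765), H19 with Peg3 in WT (r 0.843) and H19 with Meg3 in saline mice (r 0.743).

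Among the genes whose levels went most like H19 over the 36 libraries, once group and sex means were taken out, were Kif1c (r 0.943), Speg (0.941), Shisa4 (0.941) and Pacsin3 (0.940), of 2292 genes. Acta1 stood at r 0.90 and Ckm at 0.883. Speg encodes a kinase of striated muscle. Among those most like Igf2 were Tns1 (r 0.839), Lamb2 (0.821), Ctdsp2 (0.816) and Tef (0.813), and Acta1 stood at 0.661. These libraries share their dissection and depth, so the values are a description.

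Other imprinted genes moved both ways. Of 54 in the table, 20 were abundant enough for the TPM fit, and between ABE and saline mice 11 rose and 3 fell, with a median log2 fold change of 0.10 against -0.02 over all genes. Of the 8 most abundant, Gnas (0.32, adjusted p = 0.00768), Igf2r (0.22, adjusted p = 0.0108) and Peg13 (0.20, adjusted p = 0.00407) rose, Tssc4 (-0.17, adjusted p = 0.0039) and Ago2 (-0.20, adjusted p = 0.0476) fell, and Cd81 (0.06), Nap1l4 (0.08) and H13 (-0.02) did not pass. With muscle content in the fit 4 rose and none fell, the 4 being Airn, Kcnq1ot1, Casd1 and Blcap (named after their values were seen). Against WT, 11 of the 20 were called in saline mice (6 higher, 5 lower) and 14 in ABE mice (9 higher, 5 lower), where 52.3% and 70.2% of all genes were called, and 48.3% were between ABE and saline mice.

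The neighbours of Peg3 and Rian were looked at after their values were seen. Zim1 and Usp29, imprinted genes of the Peg3 domain, were 1.60 (SE 0.30, adjusted p = 0.000335) and 2.55 (SE 0.48, adjusted p = 0.000339) higher in ABE than in saline mice on the log2 scale of the read fit. They stayed higher with muscle content, at 0.80 (SE 0.19, adjusted p = 0.00789) and 1.22 (SE 0.25, adjusted p = 0.00232). Mirg, a maternal noncoding RNA beyond Rian, was 1.07 higher (SE 0.30, adjusted p = 0.00496), and 0.26 (SE 0.18, adjusted p = 0.341) with muscle content. Dio3 of the same domain was at 0.56 (SE 0.32, adjusted p = 0.146).

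Of 18 genes of the IGF pathway 11 were tested, and 4 rose and 1 fell between ABE and saline mice, a share near the 48.3% of all genes called. Igfbp6, a binding protein with a preference for IGF2, rose by 1.44 (SE 0.32, adjusted p = 0.00119) and kept 0.70 (SE 0.21, adjusted p = 0.0289) with muscle content. Irs1 (0.36, adjusted p = 0.0129), Insr (0.21, adjusted p = 0.00245) and Igf2r, the receptor that clears IGF2, rose as well, and Igfbp4 fell (-0.50, adjusted p = 0.0107). With muscle content these 4 lost their calls, at 0.12 for Irs1 (adjusted p = 0.378), 0.15 for Insr (adjusted p = 0.0620), 0.10 for Igf2r (adjusted p = 0.286) and -0.41 for Igfbp4 (adjusted p = 0.107). Igf1 and Igf1r were named after their values were seen. Igf1 was at 0.06 (SE 0.10, adjusted p = 0.652), Igf1r at -0.10 (SE 0.05, adjusted p = 0.133), Igfbp5 at 0.24 (adjusted p = 0.20), Igfbp7 at 0.07 (adjusted p = 0.696) and Irs2 at 0.21 (adjusted p = 0.0638). Against WT, 4 were higher and 3 lower in saline mice and 6 were higher and 1 lower in ABE mice, where 52.3% and 70.2% of all genes were called, with Igf2r at 0.41 (SE 0.07) and 0.63 (SE 0.07).

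Among genes that keep imprints through cell division, 6 of 8 were tested. Of these, Dnmt1, the maintenance DNA methyltransferase (-0.56, adjusted p = 0.00271), its partner Uhrf1 (-0.76, adjusted p = 0.00351), Ctcf (-0.23, adjusted p = 0.00645) and Trim28 (-0.18, adjusted p = 0.00808) fell between ABE and saline mice, where 25.1% of all genes were lower. Zfp445 was at 0.06 (adjusted p = 0.0926) and Smchd1 at -0.15 (adjusted p = 0.0550), and Zfp57 and Dppa3 were below the level tested. With muscle content in the fit 0 of 6 passed in limma, and 3 were under an unadjusted p of 0.05. In the same comparison 4 of 5 tested marrow leukocyte markers and 4 of 4 tested erythroid markers were lower. Their part in the fall of these genes was not tested. Against WT, 2 of 6 were lower in saline mice (24.6% of all genes) and 6 of 6 in ABE mice (35.2%).

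Genes of muscle precursors were also checked, since H19 is abundant in young and regrowing muscle. All 7 were detected in every group, and their summed level was 2.14 to 4.03 scaled TPM in WT, 4.24 to 8.45 in saline and 5.50 to 12.5 in ABE mice. Myod1, the muscle determination factor, rose by 0.95 (SE 0.26, adjusted p = 0.00464) between ABE and saline mice, and was at 0.32 (adjusted p = 0.172) with muscle content. Ncam1 was at -0.03 (adjusted p = 0.796) in that comparison. Its log2 fold change over WT was 0.90 (SE 0.07) in saline and 0.87 (SE 0.07) in ABE mice. With muscle content it was 0.93 in both. Myod1 was at 0.97 (SE 0.26) and 1.92 (SE 0.26) over WT, and at 0.38 (SE 0.16) and 0.70 (SE 0.20) with muscle content. Ncam1 was the largest part of the summed level, with means of 2.12, 4.38 and 4.33 scaled TPM in WT, saline and ABE mice. Pax7, Myf5, Myog, Myh3 and Myh8 were below the level tested, with means of at most 0.659 scaled TPM in any group. The part of these cells in the level of H19 was not tested.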

How the data were processed

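Tibia RNA from 36 mice was sequenced as stranded poly(A) libraries. The authors aligned reads to GRCm38 with STAR (2.73a in the submitters' processing notes), used QoRTs to count reads over GENCODE genes, and deposited TPM for each library (56246 genes). How TPM were computed is not given in the sources used here. The study's own comparison used a count model with sex as a covariate, and TPM are not counts. Whole reads were recovered from TPM and gene length less 218 bp (tolerance 0.01, 100% of values). TPM were divided by each library's median ratio, 0.5 was added before log2, and genes averaging 0.5 scaled TPM or more were tested with limma 3.58.1 (R 4.3.3) over all 36 libraries with sex as a covariate, and p-values were adjusted by Benjamini-Hochberg over all genes tested. The read fit (limma-voom, mean of at least 10 reads) was added after the data were seen, to reach members below that level. Correlations used 100000 permutations (scipy 1.17.1) and were adjusted over 30 or 36. The fits were tested on simulated data.

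The members and lists were chosen with earlier results of these data known. Named from each list were up to 8 genes with the highest mean, and a few others that the text marks as named after their values were seen. Labels do not say which mice were littermates. Coordinates are from GENCODE (release M21), and depth was 48064068 to 116206662 reads on genes. The human LMNA transgene and the editor were not analysed here. Some genes most like H19 or Igf2 are not reported here.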

Additional observations from a re-analysis of the deposited data

Results flagged for a closer look

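The rise of Grb10 from WT to saline mice differed between the sexes by -0.60 on the log2 scale (females minus males, SE 0.14, adjusted p = 0.0407 with limma), and the read fit gave -0.81 (adjusted p = 0.0218). Without ABE replicate 1 the adjusted p was 0.0358. With muscle content in the fit the difference was -0.46 (adjusted p = 0.152). Fitted Grb10 was higher in female than in male WT mice, though their levels overlapped and the TPM fit did not call the difference. The read fit did call it, and 6 mice of each sex stand behind each value.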

How the results depend on the processing

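Of 1259 alternative values, 1150 kept direction and side of the threshold or moved less than the spread. The log2 difference of H19 between ABE and saline mice was 0.91 with a pseudocount of 0.1 (adjusted p = 0.0516), 0.89 with no filter or no sex covariate (0.0673 and 0.0725), 0.51 with TPM as deposited (0.222), 0.89 and 0.91 in limma-voom on genes of the TPM fit and from 10 reads (0.0591 and 0.0525), 0.63 in males (0.278) and 1.15 in females (0.108), all with p above 0.05, and 0.72 to 1.09 with each library left out. The call was lost without saline replicates 3, 4, 5, 8, 9 or 10, or ABE replicates 1, 4, 7 or 8 (adjusted p 0.0507 to 0.0832). With Acta1 and Ckm it was -0.0060 and with the muscle list -0.066. Against WT, with the muscle list, H19 was at 1.18 in saline and 1.11 in ABE mice, and 1.27 in ABE mice with Acta1 and Ckm, 1.92 and 2.79 with sums without abundant genes, and with each library left out 1.98 to 2.27 and 2.83 to 3.20.

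Signs also turned for Dlk1 against WT in ABE mice (-0.24 with Acta1 and Ckm, -0.28 with the muscle list), for Igf2 between ABE and saline mice (-0.22 and -0.25), for Plagl1 in females (0.061), for Mest in males (-0.032), and with TPM as deposited for Plagl1 against WT in ABE mice (-0.016) and Grb10 between ABE and saline mice (-0.12). TPM as deposited shift the median of all genes by -0.27 in that comparison. The cause was not tested.

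Genes called between saline and WT mice were 8315, against 13170 with no filter, 2043 with a filter at 5, 4742 with TPM as deposited, 3273 in females and 12878 from 10 reads. Between ABE and WT mice they were 11156, against 19138 with no filter, 2614 with a filter at 5, 6094 with Acta1 and Ckm, 5162 with the muscle list and 16744 from 10 reads. Between ABE and saline mice they were 7674, against 1775 with a filter at 5, 3210 in males, 4730 in females, 1838 with Acta1 and Ckm and 1420 with the muscle list. Fewer or more genes tested, or fewer mice, go with the filter, read and sex settings.

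In that comparison 3 members were called in the TPM fit, and 1 with TPM as deposited, males alone, Acta1 and Ckm or the muscle list. Other imprinted genes called were 14, against 6 with TPM as deposited, 5 in males, 8 in females, 4 with Acta1 and Ckm and 3 with the muscle list. IGF pathway genes called were 5, against 3 with TPM as deposited or in males, 2 in females and 1 with either muscle covariate. Imprint maintenance genes called were 4, against 0 in males and with either muscle covariate. Correlations with muscle that passed were 23, against 2 without the 2 farthest libraries, and those between members 21, against 5 after the regression on muscle. Sex differences of members called were 1, against 4 with Acta1 and Ckm. The H19 to Igf2 ratio missed the threshold in all 3 alternatives. No paired analysis was possible because the labels do not say which mice of different groups belong together.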
